A study of Mus musculus with 7 samples.

Results

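The nuclear envelope genes described here are the 10 members Emd, Sun1, Sun2, Lmna, Lmnb1, Lmnb2, Lbr, Syne1, Syne2 and Tmpo, and a probe counted as theirs where the platform annotation gave one of these symbols. The array held 20 such probes for 9 of the 10 genes, among 25697 probes for 16593 genes in all, and none was annotated to Syne2. The family was chosen by measured values, the opposite knockout-minus-wild-type differences of Emd and Sun1 on these same arrays, so the values of those 2 genes are given as a description without a test. Brain total RNA came from 3 male mice homozygous for a knockout (ko) allele of Duf1220 and from 4 male wild-type mice, all of 21 weeks and of the strain C57BL/6J, with a mouse to each array. The groups share strain, sex and age and differ in the labels only by the allele. The labels do not say how the allele was made, whether the wild-type mice were littermates or which part of the brain was taken.

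The nuclear envelope is a double membrane lined on its inner face by a mesh of lamins, with Lmna encoding the A-type and Lmnb1 and Lmnb2 the B-type lamins. SUN proteins cross the inner membrane, bind lamins, and hold the KASH domain of nesprins (Syne1, Syne2) in the outer membrane, and this bridge, the LINC complex, links the nucleus to the cytoskeleton. Emerin (Emd) and the LAP2 proteins (Tmpo) carry a LEM domain that binds the chromatin protein BAF, and the lamin B receptor (Lbr) tethers heterochromatin. In the developing mouse brain, B-type lamins, SUN proteins and nesprins are needed for nuclei to move within migrating neurons.

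Emd, Sun1 and the paralogue Sun2 are the genes on which the comparison below turns, and the 250 bases before their annotated starts are shown so that their promoters can be set side by side. They are RefSeq sequences of build GRCm38.p6, read 5′ to 3′ in the direction of the gene, with GC boxes (GGGCGG) and CCAAT boxes (CCAAT) found on either strand in capitals. The Emd window is chrX:74254437-74254686 on the + strand, that of the more upstream Sun1 start is chr5:139200387-139200636 on the + strand, and that of Sun2 is chr15:79742537-79742786 on the - strand.
Emd: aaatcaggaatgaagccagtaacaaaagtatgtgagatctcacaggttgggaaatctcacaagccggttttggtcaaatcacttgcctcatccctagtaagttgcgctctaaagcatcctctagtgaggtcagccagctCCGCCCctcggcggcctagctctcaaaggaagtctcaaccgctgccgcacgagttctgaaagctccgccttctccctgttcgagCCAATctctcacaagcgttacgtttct
Sun1: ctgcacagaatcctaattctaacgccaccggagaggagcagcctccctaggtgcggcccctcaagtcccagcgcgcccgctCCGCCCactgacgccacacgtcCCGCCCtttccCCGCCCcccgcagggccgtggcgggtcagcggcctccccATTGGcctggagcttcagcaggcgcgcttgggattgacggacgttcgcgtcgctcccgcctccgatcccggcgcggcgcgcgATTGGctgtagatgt
Sun2: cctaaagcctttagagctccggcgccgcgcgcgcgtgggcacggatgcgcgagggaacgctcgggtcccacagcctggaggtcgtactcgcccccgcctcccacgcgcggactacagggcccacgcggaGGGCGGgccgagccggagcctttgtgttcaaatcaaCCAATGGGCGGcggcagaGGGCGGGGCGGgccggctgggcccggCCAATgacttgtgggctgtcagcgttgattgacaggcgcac
The Emd window held 1 GC box and 1 CCAAT box, that of Sun1 held 3 and 2, and that of Sun2 held 4 and 2. Neighbouring GC boxes of Sun2 share a letter. Over 32851 annotated windows of the same length, 32.7% held the GC box and 33.8% the CCAAT box. The cAMP response element TGACGTCA, present in 1.55% of all windows, was searched because the targeted gene's product binds a cAMP phosphodiesterase, and these letters were in none of the 3 windows. The TATA box (TATAAA, 12.4% of all windows) and the E box (CACGTG, 6.02%) were likewise in none of the 3. The G and C content was 51.2% for Emd, 70.0% for Sun1 and 70.8% for Sun2, beside a median of 52.4% over all windows, and the number of CpG dinucleotides was 12, 30 and 31, beside a median of 6. The window of the more downstream Sun1 start, not shown, held 1 TATA box, 1 CCAAT box and no GC box. Its G and C content was 43.6%, with 1 CpG dinucleotide.

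The values below are the deposited normalized intensities, on a linear scale. A probe was tested where at least 3 of the 7 arrays gave it an intensity over 16, which held for 12833 probes and for 15 of the 20 member probes. Differences are knockout minus wild type on a log2 scale with intensities under 16 set to 16, and p-values are those of limma adjusted by Benjamini-Hochberg over all 12833 probes. No probe passed an adjusted p of 0.05 (0%, lowest adjusted p 0.754), and 4.20% had an unadjusted p under 0.05. Wild-type array 2 stood apart, with a mean correlation across probes of 0.932 with the other arrays, and so did wild-type array 3 to a lesser degree (0.970), while for the remaining arrays this mean was 0.976 to 0.981. Each member is therefore also given without wild-type array 2. The neuronal markers Syt1 and Stmn2 read from 2588 to 5146 on all arrays, whereas the probes of 3 of the 8 neuronal markers, Snap25, Nefl and Gad2, lay below the floor on every array. The targeted gene Pde4dip, which encodes the Duf1220 domain in the mouse, read 1233, 1442 and 1498 in the knockout and 2228, 2502, 2198 and 2157 in wild type at its brightest probe, but 440.8, 528 and 500.3 against 475, 662, 381 and 459.8 at another. Whether these probes fall inside the deleted stretch was not examined, so they do not check the labels. In bulk tissue, fewer cells of a type and less RNA per cell cannot be told apart.

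Emerin transcript gave lower readings in every knockout brain than in any wild-type brain at both of its probes. Probe ILMN_2630593 read 68.8, 65.1 and 69.1 in the knockout and 92.7, 117.6, 114.8 and 95.6 in wild type. The knockout readings lay within a narrow band, and wild-type arrays 2 and 3 were the highest. The means were 67.7 ± 2.255 (SD, n = 3) in the knockout and 105.2 ± 12.8 (SD, n = 4) in wild type, a level 1.55-fold lower in the knockout and a log2 difference of -0.63 (SE 0.15). Probe ILMN_2745259 read 44.0, 56.0 and 53.5 in the knockout and 64.2, 90.8, 73.8 and 62.6 in wild type. Again the groups did not overlap and arrays 2 and 3 were the highest of wild type, and the log2 difference was -0.50 (SE 0.18). Without wild-type array 2 the differences were -0.57 and -0.39, and without both wild-type arrays 2 and 3 they were -0.48 and -0.32.

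Sun1, which encodes an inner-membrane anchor of the LINC complex, gave higher readings in the knockout, clearly so at the dimmer of its 2 probes. Probe ILMN_2986131 read 80.9, 81.3 and 76.8 in the knockout and 52.5, 37.3, 59.2 and 56.6 in wild type. No wild-type array reached the lowest knockout array, and wild-type array 2 was the lowest of all. The means were 79.7 ± 2.48 (SD, n = 3) in the knockout and 51.4 ± 9.79 (SD, n = 4) in wild type, a level 1.55-fold higher in the knockout and a log2 difference of 0.65 (SE 0.19). Probe ILMN_2437856 read 1221, 1168 and 1136 in the knockout and 1147, 625, 950 and 1134 in wild type. Here the groups overlapped, since wild-type arrays 1 and 4 were close to the knockout arrays. The log2 difference was 0.33 (SE 0.23), 0.13 without wild-type array 2 and 0.042 without both wild-type arrays 2 and 3. At the dimmer probe it was 0.51 and 0.55 in these settings. The 2 probes carry the same transcript record in the annotation, and their positions on it were not used here. Among markers of other cell types, all 6 tested endothelial markers had a positive log2 difference (median 0.16), though Slco1a4 by only 0.014 (SE 0.24). Their summed intensity was 1975 to 2271 on the knockout arrays and 1858 to 1993 on the wild-type arrays. All 3 tested fibroblast markers were higher too (median 0.49, and 0.24 without wild-type array 2). Their sums were 514 to 594 on the knockout arrays and 433 to 686 on the wild-type arrays, at most 499 without wild-type array 2. Col1a1 lay under the floor on wild-type array 2, and Lum on wild-type arrays 2 and 3. The endothelial marker Cdh5 lay under it on wild-type arrays 1 and 2. Of the 5 tested neuronal markers 2 were higher and 3 lower, from -0.63 for Slc17a7 to 0.42 for Stmn2, with sums of 18077 to 18766 on the knockout arrays and 18151 to 22063 on the wild-type arrays. The myeloid markers S100a8 and S100a9, listed with blood, lay above all wild-type arrays (differences 0.88 and 1.29). The red cell genes Hba-a1 and Alas2 of that list were lower with overlap (-0.58 and -1.07). Of the 5 tested choroid plexus markers, Folr1 and Clic6 (-1.34 and -0.30) lay below all wild-type arrays. Folr1 read 22.6, 15.2 and 16.4 in the knockout, close to the floor. Ttr (0.17), Kl (-0.05) and Aqp1 (-0.07) overlapped. The microglial marker Aif1 (-0.57) lay below all wild-type arrays. Of the 6 tested microglial markers 4 were lower and 2 higher, C1qb (0.26) and P2ry12 (0.64). P2ry12 lay just under the floor on wild-type arrays 2 and 3. Of the 4 tested new-neuron markers 3 were higher, with Dlx1 at 0.73 (SE 0.31). Tubb3 (-0.28) was lower and under the floor in the knockout. Their median was 0.43, and 0.49 without wild-type array 2. The 2 tested pituitary markers Gh (-1.84) and Prl (-1.46) were lower with overlap. Medians were -0.060 for astrocyte, -0.070 for oligodendrocyte and 0.060 for oligodendrocyte precursor markers. In these lists 3 of 6, 2 of 6 and 2 of 3 were higher. None of these markers passed the test. The part of the cell mixture in the Emd and Sun1 readings was not tested.

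**Figure D1:**
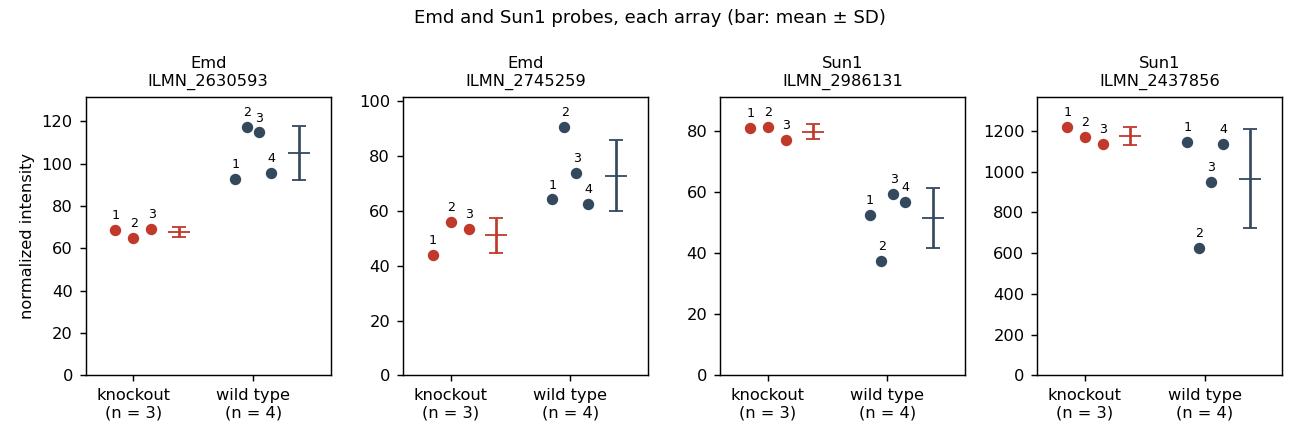
Normalized intensity (y axis, linear, from 0) of the 2 Emd and 2 Sun1 probes on each knockout array (red, n = 3) and each wild-type array (dark, n = 4), with the array number above each point and the mean ± SD beside it. The knockout points lie below all wild-type points at both Emd probes and above them at Sun1 ILMN_2986131. At Sun1 ILMN_2437856 knockout arrays 1 and 2 lie above all wild-type points, and knockout array 3 lies between wild-type arrays 1 and 4.

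Across all tested probes the groups were separated with lower readings in the knockout at 3.94% of probes and with higher readings at 3.44%. The separation at 3 of the 4 tested Emd and Sun1 probes is a description, since this contrast chose the genes. Within wild type, array 2 was the farthest from the knockout for both genes, whereas the place of array 3 differed between probes. The Emd probe ILMN_2630593 deviated from its mean over the 7 arrays by 0.44 and 0.40 log2 units on wild-type arrays 2 and 3, against 0.095 and 0.14 on wild-type arrays 1 and 4. The Sun1 probe ILMN_2986131 deviated by -0.72 on wild-type array 2 and by -0.23, -0.054 and -0.12 on wild-type arrays 1, 3 and 4. Array 3, far from the knockout for Emd, was thus the nearest at this Sun1 probe. At the brighter Sun1 probe ILMN_2437856 array 3 deviated by -0.12, against 0.151 and 0.135 on wild-type arrays 1 and 4. There it lay farther from the knockout than those arrays.

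**Figure D2:**
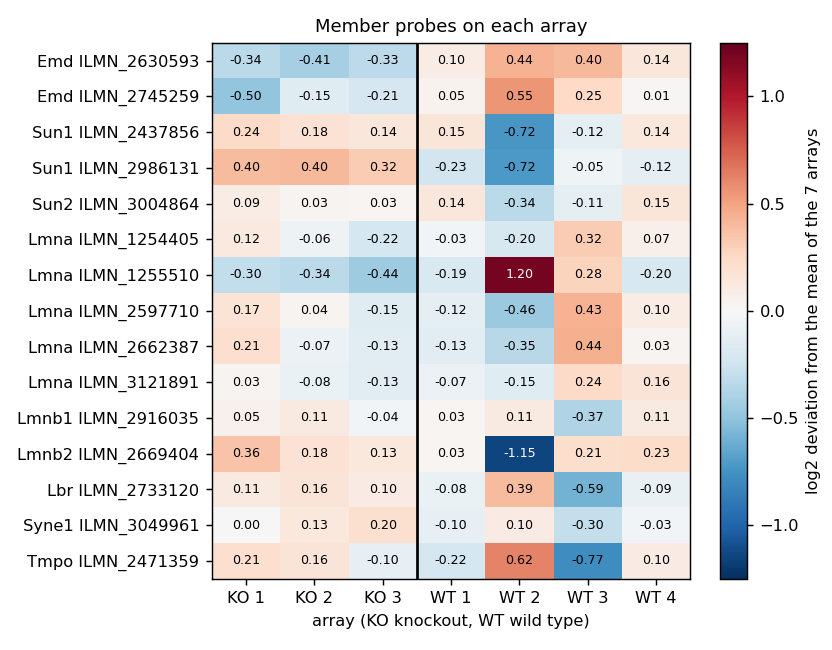
Log2 deviation of each tested member probe (rows) from its own mean over the 7 arrays, on the 3 knockout (KO) and 4 wild-type (WT) arrays (columns), with red above and blue below the mean. Wild-type array 2 holds the most extreme cells, 1.20 for Lmna ILMN_1255510 and -1.15 for Lmnb2, while the Emd and Sun1 ILMN_2986131 rows change sign between the groups.

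Of the 7 remaining members with a tested leading probe, the one with the highest mean intensity, 6 were higher and 1 lower in the knockout, and none of their 11 tested probes passed the test. Their adjusted p ran from 0.754 to 0.999, and 0 of the 11 had an unadjusted p under 0.05 in limma. The groups were separated at 1 of the 11 probes, beside 7.39% of all tested probes. The median log2 difference of the 7 leading probes was 0.16, beside 0.033 over all 9077 genes with a tested leading probe, of which 55.0% were higher. Without wild-type array 2 the median was 0.12, beside 0.013 over all genes, with 5 of the 7 higher, and without both wild-type arrays 2 and 3 it was 0.096 with 4 of the 7 higher.

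Sun2, the SUN protein that shares the inner-membrane role of Sun1, differed little between the groups. Its probe read 816, 786 and 782 in the knockout and 848, 608, 710 and 854 in wild type. The knockout arrays lay inside the wild-type range, and wild-type array 2 was again the lowest. The log2 difference was 0.088 (SE 0.17, 95% interval -0.29 to 0.47, limma adjusted p = 0.866), and it was -0.011 without wild-type array 2.

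Syne1, which encodes nesprin-1, read 938, 1026 and 1076 in the knockout and 876, 1009, 761 and 919 in wild type at probe ILMN_3049961. All 3 knockout arrays exceeded wild-type arrays 1, 3 and 4, and wild-type array 2 lay among them. The log2 difference was 0.19 (SE 0.15, 95% interval -0.16 to 0.54, limma adjusted p = 0.754), 0.25 without wild-type array 2 and 0.12 without array 3. The other 2 Syne1 probes, annotated to other transcript records, were not tested. ILMN_3017615 lay under 16 on every array, and ILMN_3028463 read 5.92 to 10.3 in the knockout and 9.39, 78.3, 11.7 and 9.72 in wild type, above the floor on wild-type array 2 alone.

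**Figure D3:**
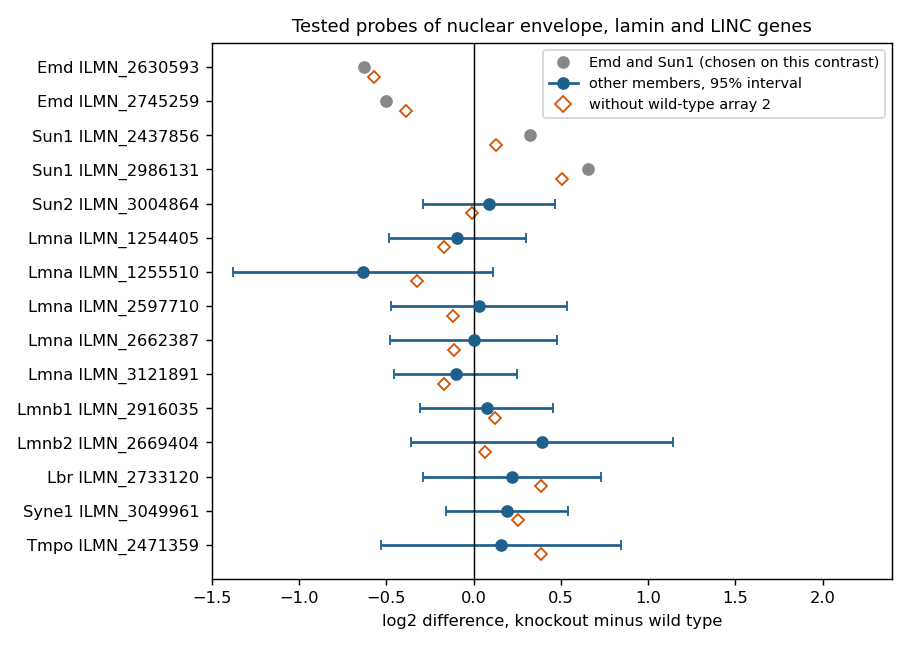
Log2 difference, knockout minus wild type (x axis), of the 15 tested member probes, with 95% intervals from limma in blue for the members other than Emd and Sun1, which are drawn as grey points without an interval. Open diamonds give the difference without wild-type array 2, which brings Lmnb2 to 0.067 and Sun1 ILMN_2437856 to 0.13, and all blue intervals include 0.

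The A-type lamin gene Lmna had 5 tested probes, of which 1 differed by more than the others. Probe ILMN_1255510 read 412, 402 and 375 in the knockout and 447, 1170, 617 and 442 in wild type. It is the 1 probe of the 11 at which the groups were separated, with a log2 difference of -0.63 (SE 0.33, 95% interval -1.38 to 0.11, limma adjusted p = 0.754). Without wild-type array 2 it was -0.32, and without both wild-type arrays 2 and 3 it was -0.17.
The other 4 Lmna probes overlapped between the groups, with differences of -0.09, 0.03, 0.00054 and -0.10 and limma adjusted p of 0.826 to 0.999. All 4 were lower in the knockout without wild-type array 2, with differences of -0.17 to -0.11. Probe ILMN_1254405, the brightest of these 4, read 447.5, 393.9 and 355 in the knockout and 403.5, 360, 515 and 431.5 in wild type. All 4 were highest on wild-type array 3, and 3 of them were lowest on wild-type array 2, where ILMN_1255510 was highest. Of the 3 tested mural cell markers, Acta2 was highest on that array, at 1384, against 662 to 737 on the knockout arrays and 721 to 948 on the other wild-type arrays, while Pdgfrb (25.1) and Myh11 (19.2) were at their lowest of the 7 arrays there, with Rgs5 and Tagln below the floor. Of the 4 blood markers, the red cell genes Hba-a1 and Alas2 were highest there (26435 and 1045), while S100a8 was at its lowest (87.6) and S100a9 (23.3) below every knockout array. The part of these cells in the Lmna reading was not tested. Lmna lies on chromosome 3, as does the targeted gene Pde4dip.

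**Figure D4:**
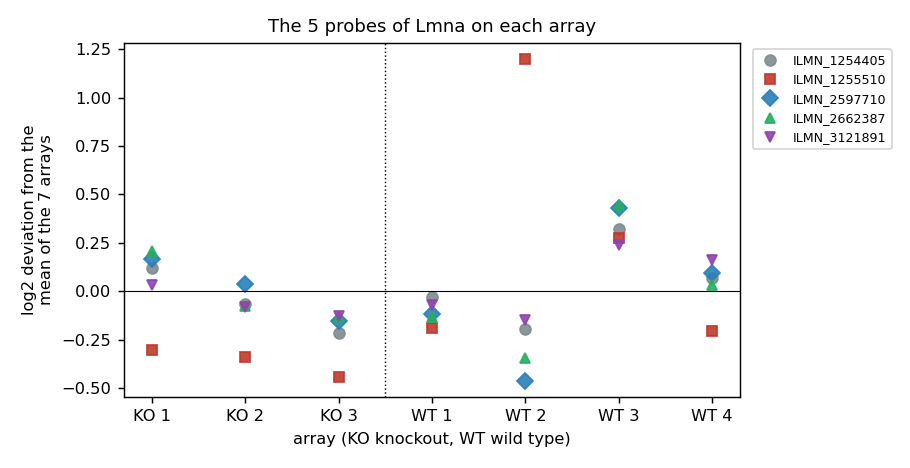
Log2 deviation of the 5 Lmna probes (symbols) from each probe's mean over the 7 arrays (y axis), on each knockout (KO) and wild-type (WT) array (x axis). ILMN_1255510 stands at 1.20 on wild-type array 2, where the other 4 probes lie between -0.46 and -0.15, while all 5 lie above their mean on wild-type array 3.

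The B-type lamin genes overlapped between the groups. Lmnb1 read 211, 220 and 198 in the knockout and 207, 219.6, 157 and 219.3 in wild type at probe ILMN_2916035, with a log2 difference of 0.073 (SE 0.17, 95% interval -0.31 to 0.46, limma adjusted p = 0.893). Wild-type array 3 stood below the rest, and the difference was 0.12 without wild-type array 2 and -0.040 without array 3. Its second probe, ILMN_2720229, lay under 16 on all arrays. Lmnb2 read 237, 210.3 and 202.5 in the knockout and 188.5, 83.5, 214.6 and 217 in wild type. The low wild-type array 2 set most of its difference, which was 0.39 (SE 0.33, 95% interval -0.36 to 1.14, limma adjusted p = 0.754) with that array and 0.067 without it.

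Lbr, whose product binds B-type lamins and heterochromatin and is also a sterol reductase, read 376, 390 and 373.5 in the knockout and 329, 456.5, 230 and 326 in wild type. The knockout arrays lay close together and above wild-type arrays 1, 3 and 4, with wild-type array 2 above them. The log2 difference was 0.22 (SE 0.22, 95% interval -0.29 to 0.73, limma adjusted p = 0.766). Without wild-type array 2 it was 0.38, with an adjusted p of 0.796, and without wild-type array 3 it was 0.054. Tmpo, which encodes the LAP2 proteins, was dim, at 49.4, 47.8 and 39.8 in the knockout and 36.6, 65.7, 25 and 45.9 in wild type at probe ILMN_2471359. The wild-type arrays spanned the knockout arrays on both sides, and the log2 difference was 0.16 (SE 0.30, 95% interval -0.53 to 0.84, limma adjusted p = 0.868), 0.39 without wild-type array 2 and -0.078 without array 3. Its other 2 probes stayed under 16 on all arrays. Of 5 markers of dividing cells, cells in which Lmnb1 and Tmpo are abundant, 3 had a probe (Top2a, Cdk1 and Ccnb2), and none exceeded an intensity of 11.7.

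The genes that work with these members were examined through 7 lists of 97 genes, of which 85 had a probe and 70 a tested leading probe. At the leading probe 37 of the 70 were higher and 33 lower in the knockout, 0 passed the test and 3 had an unadjusted p under 0.05 in limma, beside 4.20% of all tested probes. The groups were separated for 7 of the 70 (10%), beside 7.39% of all tested probes.

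Among the inner-membrane and LEM-domain genes, the neighbours of emerin in the envelope, 5 of 12 tested genes were higher and 7 lower, with a median log2 difference of -0.041, and without wild-type array 2 it was -0.12 with 3 of 12 higher. Nrm, which encodes the inner-membrane protein nurim, read 137, 133 and 157 in the knockout and 167, 253, 203 and 162 in wild type, a log2 difference of -0.44 (SE 0.19, limma adjusted p = 0.754). Tmem201, whose product Samp1 associates with the LINC complex, read 662, 762 and 819 in the knockout and 953, 1394, 1188 and 814 in wild type, a difference of -0.52 (SE 0.21, limma adjusted p = 0.754). Wild-type arrays 2 and 3 were the highest for both, as they were for Emd, and without wild-type array 2 the differences were -0.31 and -0.39. Tmem43, whose product LUMA binds emerin and lamins, read 503, 530.2 and 539.7 in the knockout and 469.6, 409, 386 and 495 in wild type, higher in the knockout without overlap (difference 0.26, SE 0.15, limma adjusted p = 0.754). The BAF gene Banf1 differed by 0.08 (SE 0.27), but by -0.17 without wild-type array 2, and the LEM-domain gene Lemd2 by -0.04 (SE 0.13); these 2 were named after their values were seen.

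In the list of other SUN, KASH and torsin-pathway genes 4 of 10 tested genes were higher and 6 lower (median -0.067, and 0.070 without wild-type array 2). Syne4, which encodes nesprin-4, differed by 0.56 (SE 0.34) but by 0.25 without wild-type array 2, and the torsin family gene Tor2a read 27.7, 25.9 and 17.5 in the knockout and 7.84, 2.66, 7.99 and 18.3 in wild type, so that its difference is set by the floor. Clmn, which encodes calmin, was separated, at 90.9, 93.3 and 88.7 in the knockout and 108.1, 100.2, 166.9 and 107.5 in wild type (difference -0.38, SE 0.20), and Tor1aip2, whose product activates torsins, differed by -0.18 (SE 0.23) but by -0.00072 without wild-type array 2. Sun3, Sun5, Spag4 and Syne3 did not reach the intensity filter. Of the 6 lamin maturation genes 3 were higher and 3 lower (median -0.0072, and 0.071 with 4 higher without wild-type array 2). Icmt, the methyltransferase acting on farnesylated prelamins, read 1624, 1319 and 1411 in the knockout and 1182, 619, 1254 and 1301 in wild type, separated, with a difference of 0.47 (SE 0.27) that was 0.22 without wild-type array 2. Zmpste24, the prelamin A protease, differed by 0.20 (SE 0.15), the farnesyltransferase subunit gene Fntb by -0.06 (SE 0.14) and Narf, which encodes a prelamin-binding protein, by -0.05 (SE 0.20) but by 0.11 without wild-type array 2.

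Among nuclear pore genes 13 of 20 were higher and 7 lower (median 0.081), with Nup160 at 0.42 (SE 0.18) and Nup85 at 0.32 (SE 0.19), both scaffold subunits of the pore, and Nup50 at -0.42 (SE 0.20) and Nup93 at -0.41 (SE 0.21). Nup85 was 0.20 and Nup93 -0.24 without wild-type array 2. Cytoskeletal partners of nesprins had 7 of 9 higher and 2 lower (median 0.12). The kinesin light chain gene Klc1 read 7607, 7780 and 7061 in the knockout and 6485, 3666, 5494 and 7018 in wild type, a difference of 0.44 (SE 0.23) that was 0.25 without wild-type array 2. The dynein intermediate chain gene Dync1i2 differed by 0.37 (SE 0.19), the plectin gene Plec, whose product binds nesprin-3, by -0.37 (SE 0.20) but by -0.23 without wild-type array 2, and the dynein regulator gene Ndel1 by -0.03. Chromatin partners had 5 of 7 higher and 2 lower (median 0.040, and 0.13 with 6 higher without wild-type array 2), with Gmcl1 at 0.30 (SE 0.20), Bclaf1 at 0.25 (SE 0.20), the HP1 gene Cbx5 at -0.34 (SE 0.30), which was -0.087 without that array, and the beta-catenin gene Ctnnb1 at -0.01. Envelope sealing and reassembly genes had 0 of 6 higher (median -0.092), with Vps4a at -0.20 (SE 0.19), which was -0.053 without wild-type array 2, and Chmp2a at -0.14 (SE 0.14), and 2 of the 6 were higher without wild-type array 2. The limma adjusted p of each gene named in these 6 lists was 0.754 or above.

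**Figure D5:**
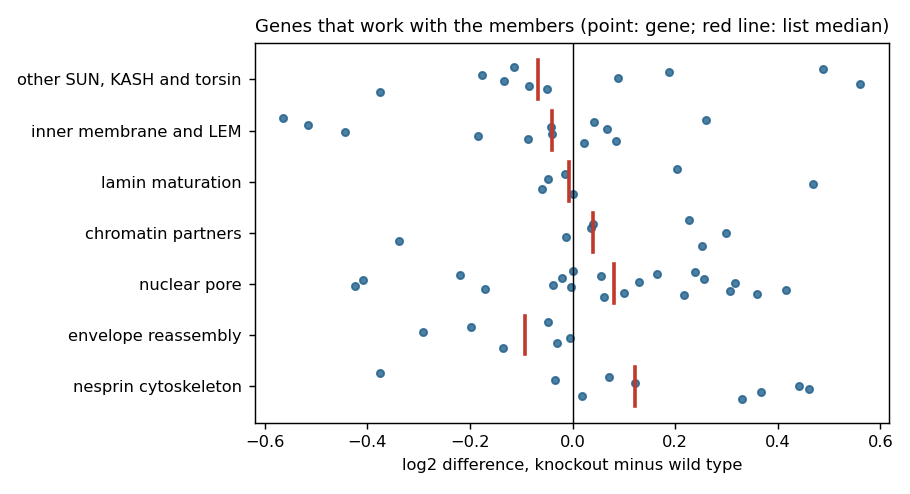
Log2 difference, knockout minus wild type (x axis), of each tested gene (points) in the 7 lists of genes that work with the members (rows), with the median of each list as a red line. The medians lie between -0.092 for envelope reassembly and 0.12 for nesprin cytoskeleton, and points lie on both sides of 0 in 6 of the lists.

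Among 9068 other genes, those whose leading probe ran closest to Emd ILMN_2630593 over the 7 arrays, by the root mean square difference of centred log2 values, were Zfp553 (0.095), Psmc5 (0.12) and Rnf225 (0.12). Psmc5, a proteasome ATPase gene, read 1954, 1899 and 1991 in the knockout and 2255, 3286, 3231 and 2224 in wild type. The closest to Sun1 ILMN_2986131 were Svep1 (0.076), Jpt2 (0.084) and Stk36 (0.11). Svep1, which encodes an extracellular matrix protein, read 35.4, 33.8 and 36.0 in the knockout and 25.1, 17.4, 24.7 and 25.6 in wild type. Wild-type arrays 2 and 3 were the highest for Psmc5 and wild-type array 2 the lowest for Svep1. This order follows from picking the genes by likeness over these same arrays.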

How the data were processed

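RNA was hybridised as biotin-labelled cRNA to Illumina BeadArrays. The deposited normalized values are intensities on a linear scale, made by the authors with GenomeStudio 2011.1 per the submitters' processing notes. Negative values (22.3% of all) and nearly equal quantiles show background subtraction and normalization between arrays, but no source here names the method. A second table was not used because its 7 signal columns match no sample label. Intensities under 16 were set to 16, a floor above the noise around 0 (90th percentile of the size of negative values 4.19), and log2 was taken. Probes above 16 on at least 3 arrays entered a limma fit (version 3.58.1, R 4.3.3; group as the only term, moderated two-sided test, Benjamini-Hochberg over all 12833 probes). The median SE of a log2 difference was 0.21, and the number of arrays limits the precision. Symbols came from the platform annotation, 1 for 23978 probes and none for 1719. Lists were read at the probe of highest mean intensity, and up to 2 genes per direction with the smallest unadjusted p were named for each, with further genes named where a level or a role stands beside a result. The members, lists, floor and named-gene rule were chosen with earlier results of these data known. Alternatives covered the floor, filter, normalization, variance model, array weights, replicate number and left-out arrays. Figures were drawn with matplotlib 3.10.9.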

Additional observations from a re-analysis of the deposited data

Results flagged for a closer look

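In the wild-type group of 4, a highest or lowest array was set against its nearest neighbour on the floored log2 scale. This was done for each of the 16 member probes with any spread above the floor. A gap beyond Dixon's 95% critical value was met at 2 probes, and chance alone marks about 1 in 20 such groups. Both concern wild-type array 2. Lmnb2 read 83.5 there, far below the other wild-type arrays at 188.5 to 217 (gap 0.853 of the range). Syne1 ILMN_3028463 read 78.3 there, while the other wild-type arrays lay under the floor. Since values under the floor were set equal to it, this gap of 1 of the range follows from the floor.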

How the results depend on the processing

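No probe passed the threshold under the main setting or under 17 of 18 alternatives fitted to all probes, and with array weights 28 probes passed (0.218%). Those weights were 0.104 for wild-type array 2 and 6.71 for wild-type array 1. Among the 11 tested probes of members other than Emd and Sun1, 0 passed under any of the 19 alternatives, the mean over probes included. Both Emd probes stayed lower and both Sun1 probes higher in the knockout in all 18. The ranges were -0.69 to -0.48 for Emd ILMN_2630593, -0.57 to -0.32 for ILMN_2745259, 0.51 to 0.73 for Sun1 ILMN_2986131 and 0.042 to 0.42 for ILMN_2437856. The kept signs are a description, since this contrast chose the genes and every setting reuses these arrays. Other floors and filters could not move these 4 differences, since every reading of the 4 probes lay above 32. A variance trend alters only the SE. Across the 4 probes the SE was 0.19 to 0.22 with the trend, against 0.15 to 0.23 without it. Among the other members signs turned in some settings for Sun2, Lmna ILMN_2597710 and ILMN_2662387, Lmnb1 and Tmpo. Their main differences ran from 0.00054 to 0.16. Sun2 was -0.079 with array weights and -0.098 without both wild-type arrays 2 and 3, where Lmnb1 was -0.026, and Lmna ILMN_2662387 was -0.00054 on the log2(intensity + 16) scale. With each array left out in turn, the range was -0.011 to 0.15 for Sun2, -0.12 to 0.18 for Lmna ILMN_2597710, -0.11 to 0.15 for Lmna ILMN_2662387, -0.040 to 0.12 for Lmnb1 and -0.078 to 0.39 for Tmpo. With the replicate number as a block, 0 probes passed and 1535 had an unadjusted p under 0.05 in limma. No knockout array carries the number 4, so wild-type array 4 adds nothing to the difference in that fit. The like count without a block is therefore the 1626 without wild-type array 4, not the 539 of the main setting. With an array left out the counts ran from 157 to 1626. Same-numbered arrays had deviations correlating at 0.0797, -0.132 and -0.0371, which shows no shared variation by number. With so few arrays these values cannot tell whether the mice were paired. Knockout array 1 correlated best with wild-type array 3 (0.226).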

Other observations

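The measured genes next to Emd and Sun1 overlapped between the groups. Of the 2 protein-coding genes on either side of Emd in the RefSeq order, the ribosomal protein gene Rpl10 was the only one tested, at 5892, 5380 and 5320 in the knockout and 5201, 6766, 6752 and 4883 in wild type, a log2 difference of -0.08 (SE 0.17, limma adjusted p = 0.887). Tktl1 and Dnase1l1 lay under the floor, and no probe was annotated to the filamin gene Flna. Beside Sun1, the cAMP-dependent kinase subunit gene Prkar1b differed by 0.14 (SE 0.26), Adap1 by 0.18 (SE 0.25) and Get4, a gene of tail-anchored protein insertion, by -0.20 (SE 0.15). Get4 read 872, 926.5 and 890 in the knockout and 1050, 1026, 1166 and 902 in wild type, with 3 of 4 wild-type arrays above every knockout array. Without wild-type array 2 Prkar1b differed by -0.11 and Adap1 by -0.024.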
